A study of Mus musculus with 9 samples.

Results

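The 9 genes described here belong to the type 2 response and were taken as the array rows whose annotation gives a member's symbol and no other. They are Tslp, the receptor subunit genes Il4ra, Il13ra1 and Il13ra2, the chitinase-like genes Chil1, Chil3 and Chil4, Arg1, and Retnla. Each of the 9 was represented by 1 row, out of 22180 genes measured by rows of that kind. The genes were chosen by function with earlier results of these arrays known. Chil4 was selected on its own measured values, a large mutant increase that was still there after Srf ablation, and Tslp had been seen to be higher in the mutant. The values of Chil4 in all comparisons, and of Tslp between mutant and wild type, are therefore a description with no test.

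The study measured mouse corneas in 3 groups of 3 arrays. The rescued group carried the corn1 mutation of Dstn, the gene for the actin-depolymerising protein destrin, together with genetic ablation of Srf in the corneal epithelium. The mutant group carried the Dstn corn1 mutation, and the third group was wild type (WT). All groups, WT included, were of mixed background (FVB, Swiss Black, 129, C57BL6/J and A.BY), received doxycycline by intraperitoneal injection from postnatal day 28 to day 58 and were taken at day 58. Each array measured a pool of 10 corneas from 5 mice, so differences between animals within a pool cannot be seen. The promoter that directs the ablation of Srf does not appear among the sources used here. Values are log2 intensities, relative units in which a difference of 1 is a doubling of signal. In bulk tissue, fewer cells of a type and less RNA per cell cannot be told apart.

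Type 2 responses can begin when a damaged or allergen-exposed epithelium releases alarmin cytokines, among them TSLP, which the ocular surface epithelium is known to make in allergic disease. These act on lymphoid cells and mast cells that secrete IL-4 and IL-13. Both cytokines signal through the chain encoded by Il4ra, which pairs with the product of Il13ra1, and activate the transcription factor STAT6. In mouse macrophages and epithelia, genes for chitinase-like proteins, arginase 1 and the resistin-like protein RELM-alpha are standard targets of that pathway. Chitinase-like proteins resemble chitinases but do not cut chitin.

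Dstn lay between 5.54 and 5.80 in the rescued and mutant pools together and between 12.55 and 12.59 in WT. Srf had log2 intensities of 9.14, 9.45 and 8.45 in rescued corneas, 10.77, 10.72 and 10.55 in mutant and 9.23, 8.98 and 9.17 in WT, so rescued replicate 3 held the least Srf signal of all 9 pools. The epithelial keratin gene Krt12, a defining marker of the cornea, lay between 13.49 and 13.96 on every array. The median of all rows was 6.77. Signals near background compress differences, so a fold against a group mean below this level is given as a lower bound, and where both groups lie below it only the log2 difference is given.

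Chil3 and Chil4, which encode the proteins also called Ym1 and Ym2, are neighbouring paralogs, and the bases before their starts are printed because the 2 genes behaved differently on the arrays. Both sequences are from RefSeq (GRCm38.p6, minus strand, 250 bases up to the annotated start), at chr3:106167565-106167814 for Chil3 and chr3:106219480-106219729 for Chil4. Capitals mark a match to TTCNNNGAA, a palindromic letter pattern that STAT proteins bind, which therefore reads the same on both strands. The third line shows Retnla (chr16:48842359-48842608, plus strand), in which capitals mark a match to TTCNNNNGAA, the wider spacing preferred by STAT6.
Chil3: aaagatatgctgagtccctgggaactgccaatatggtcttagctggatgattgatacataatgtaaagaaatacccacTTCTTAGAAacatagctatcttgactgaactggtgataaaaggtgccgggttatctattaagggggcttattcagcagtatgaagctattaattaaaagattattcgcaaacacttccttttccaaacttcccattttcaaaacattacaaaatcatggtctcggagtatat
Chil4: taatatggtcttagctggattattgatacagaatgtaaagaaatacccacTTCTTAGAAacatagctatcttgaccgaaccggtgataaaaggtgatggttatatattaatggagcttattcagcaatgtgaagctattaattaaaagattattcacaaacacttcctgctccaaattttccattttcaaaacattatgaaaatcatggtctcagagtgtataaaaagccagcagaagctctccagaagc
Retnla: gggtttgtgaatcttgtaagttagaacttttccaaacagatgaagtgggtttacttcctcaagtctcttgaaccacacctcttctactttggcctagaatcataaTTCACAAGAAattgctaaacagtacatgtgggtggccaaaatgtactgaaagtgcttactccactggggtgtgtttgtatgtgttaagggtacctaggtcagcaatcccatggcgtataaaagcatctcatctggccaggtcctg

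Aligned to each other, the Chil3 and Chil4 stretches shared 201 of 221 aligned bases (91.0%), with the Chil4 window reaching 28 bases further downstream. The same 9 letters, TTCTTAGAA, occurred in both, 172 to 164 bases before the Chil3 start and 200 to 192 before the Chil4 start. Of 32851 promoter windows of this length in the RefSeq table, 7.02% held TTCNNNGAA and 5.85% held TTCNNNNGAA. Of the 9 genes, 7 were in that table (Arg1 and Tslp were not matched): TTCNNNGAA was found for Chil3 and Chil4, TTCNNNNGAA for Retnla, where it lay 145 to 136 bases before the start, and no window held both patterns. None of the 7 held a CArG box, the motif of serum response factor, which 1.47% of all windows held. A match describes letters in the window and not binding.

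Tslp, the alarmin, stood well above WT in mutant corneas and in between in rescued corneas. It had log2 intensities of 7.50, 7.67 and 7.04 in rescued pools, 9.27, 9.28 and 9.14 in mutant pools and 5.96, 6.15 and 5.83 in WT pools. The 3 groups did not overlap, and the WT pools lay below the median of all rows. The mutant mean of 9.23 ± 0.08 (SD, n = 3) was 3.25 above the WT mean of 5.98 ± 0.16 on the log2 scale, at least 9.52-fold, and ranked 48th among the increases of all genes. In rescued corneas Tslp averaged 7.40 ± 0.33 and was 3.55-fold lower than in the mutant (log2 difference −1.83, SE 0.15, limma adjusted p = 9.23e-05). It remained at least 2.68-fold higher than in WT (log2 difference 1.42, SE 0.15, limma adjusted p = 0.000365). Of the mutant's log2 difference from WT, 43.8% was left in the rescued corneas. These comparisons share arrays with the one in which Tslp had been noticed.

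**Figure D1:**
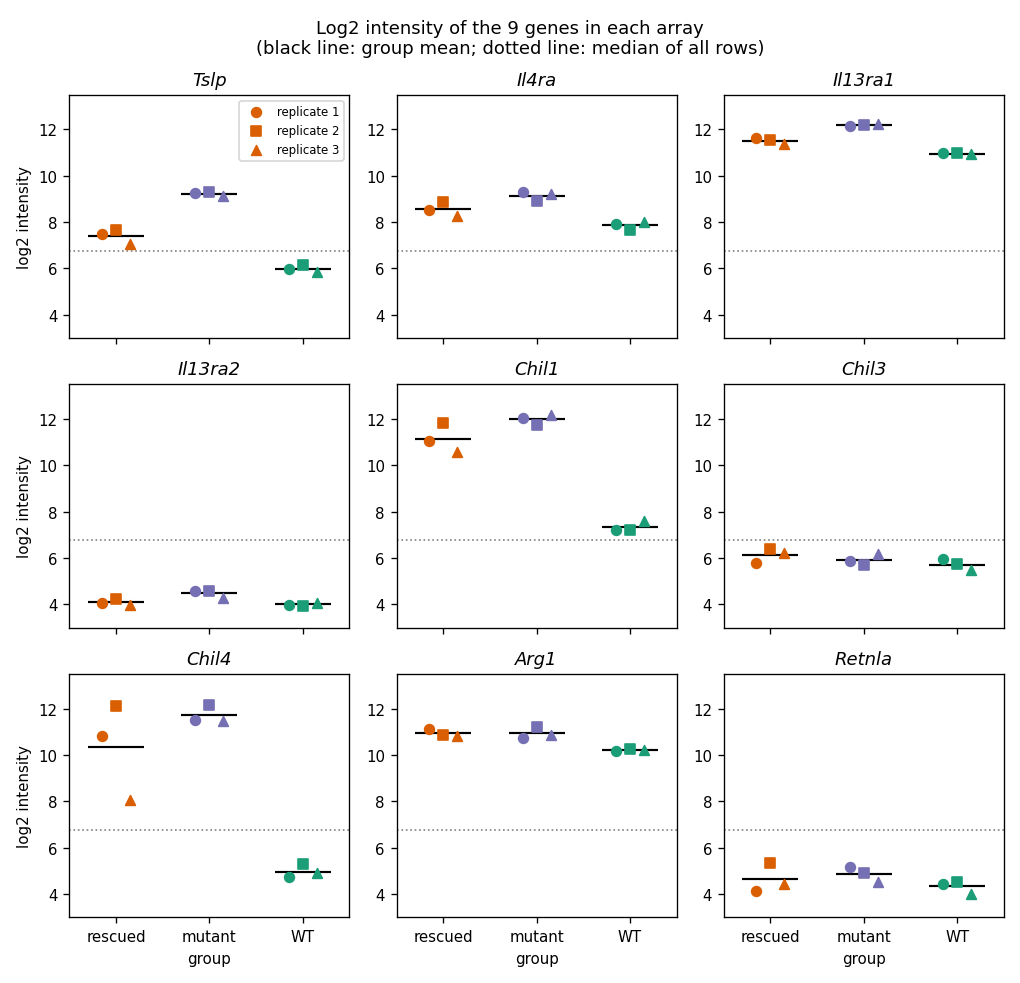
Log2 intensity (vertical axis, the same range in every panel) of each gene in the 9 arrays, by group; symbols mark replicates, black lines group means and the dotted line the median of all rows, 6.77. Tslp, Il4ra and Il13ra1 step down from mutant through rescued to WT, Chil1 is high in all rescued and mutant pools, Chil4 spreads from 8.07 to 12.10 among rescued pools, and Chil3, Il13ra2 and Retnla lie below the dotted line throughout.

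Il4ra and Il13ra1, whose products form a receptor for IL-4 and IL-13, both rose in the mutant and were intermediate in rescued corneas. Il4ra had log2 intensities of 8.53, 8.86 and 8.27 in rescued pools, 9.30, 8.93 and 9.19 in mutant pools and 7.93, 7.68 and 8.02 in WT pools. In mutant corneas it was 2.40-fold above WT (log2 difference 1.26, SE 0.16, limma adjusted p = 0.000201). The groups did not overlap, although the highest rescued pool came within 0.066 of the lowest mutant pool.

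Rescued corneas had 1.5-fold less Il4ra than mutant corneas (log2 difference −0.59, SE 0.16, limma adjusted p = 0.037) and 1.6-fold more than WT (log2 difference 0.68, limma adjusted p = 0.0195). Both calls were lost without certain single pools, while the differences kept their sign. Leaving out rescued replicate 1, rescued replicate 3, mutant replicate 1, mutant replicate 3 or WT replicate 1 raised the limma adjusted p between rescued and mutant to between 0.054 and 0.126, and fitting only the 6 arrays compared raised it to 0.0618. Leaving out rescued replicate 1, rescued replicate 2 or WT replicate 2 raised that between rescued and WT to between 0.0556 and 0.0702.

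Il13ra1 varied little between pools of a group. Its log2 intensities were 11.65, 11.54 and 11.35 in rescued corneas, 12.14, 12.20 and 12.24 in mutant and 10.98, 10.99 and 10.92 in WT, with no overlap between any groups. The mutant level was 2.35-fold above WT (log2 difference 1.23, SE 0.08, limma adjusted p = 3.76e-06). In rescued corneas it was 1.6-fold lower than in the mutant (log2 difference −0.68, limma adjusted p = 0.000598) and 1.47-fold higher than in WT (log2 difference 0.55, limma adjusted p = 0.00203), which left 44.9% of the mutant's difference.

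Il13ra2 encodes a receptor that binds IL-13 tightly and is best known as a decoy. Its signal was low everywhere, 4.06, 4.22 and 3.97 in rescued pools, 4.57, 4.56 and 4.29 in mutant pools and 3.97, 3.95 and 4.07 in WT pools. All 3 mutant pools lay above all others, yet every group lay below the median of all rows, so no fold is given. The mutant rose by 0.47 over WT on the log2 scale (SE 0.10, limma adjusted p = 0.00373). Rescued corneas fell by 0.39 relative to the mutant (limma adjusted p = 0.0256, 0.0565 with only the 6 arrays compared, and between 0.0722 and 0.0948 without rescued replicate 1, rescued replicate 3, mutant replicate 1 or mutant replicate 2). From WT the rescued corneas differed by 0.09 (95% interval −0.13 to 0.30, limma adjusted p = 0.635).

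Chil1 encodes a secreted chitinase-like protein also known as BRP-39 in mice, made by macrophages, neutrophils and injured epithelia. Across the arrays it had 11.05, 11.84 and 10.58 in rescued pools, 12.05, 11.74 and 12.17 in mutant pools and 7.19, 7.21 and 7.62 in WT pools. The mutant level was 25.1-fold above WT (log2 difference 4.65, SE 0.27, limma adjusted p = 2.29e-06), the 16th largest increase of all genes. In rescued corneas it was 14.1-fold higher than in WT (log2 difference 3.82, SE 0.27, limma adjusted p = 4.68e-05) and ranked 10th. All rescued and mutant pools lay far above the WT pools.

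Between rescued and mutant corneas, Chil1 ranges overlapped through rescued replicate 2. The difference of −0.83 did not pass (95% interval −1.44 to −0.22 before adjustment, limma adjusted p = 0.0771). Without rescued replicate 2 it was −1.17 and passed (limma adjusted p = 0.00546), as did the −0.83 itself when genes below the median were not tested (limma adjusted p = 0.0428). Of the mutant's log2 difference from WT, 82.1% was left in rescued corneas.

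Chil4 had the second largest increase of all genes in mutant over WT, which is what brought it into the group. The 9 arrays gave 10.84, 12.10 and 8.07 in rescued pools, 11.51, 12.18 and 11.49 in mutant pools and 4.73, 5.30 and 4.89 in WT pools. The mutant mean of 11.73 ± 0.39 (SD, n = 3) was 6.75 above the WT mean of 4.97 ± 0.29, at least 108-fold. The rescued mean was 10.34 ± 2.06, at least 41.2-fold above WT and again second in rank.

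That rescued mean does not describe the rescued pools well. Replicates 1 and 2 lay near or within the mutant range, whereas replicate 3 lay 4.03 below replicate 2 and 3.42 below the lowest mutant pool, and still 2.78 above the highest WT pool. The rescued minus mutant difference was −1.39 over all pools and −0.26 without rescued replicate 3. The pool labelled rescued replicate 3 was also the one with the least Srf signal, and it was the lowest of the rescued pools in 7 of the 9 genes, against 32.0% of all 22180 genes. Chil4 is among those 7 and its low value drew attention to this pool, so the count is a description only. Whether the Srf level has a part in the Chil4 level was not tested.

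**Figure D2:**
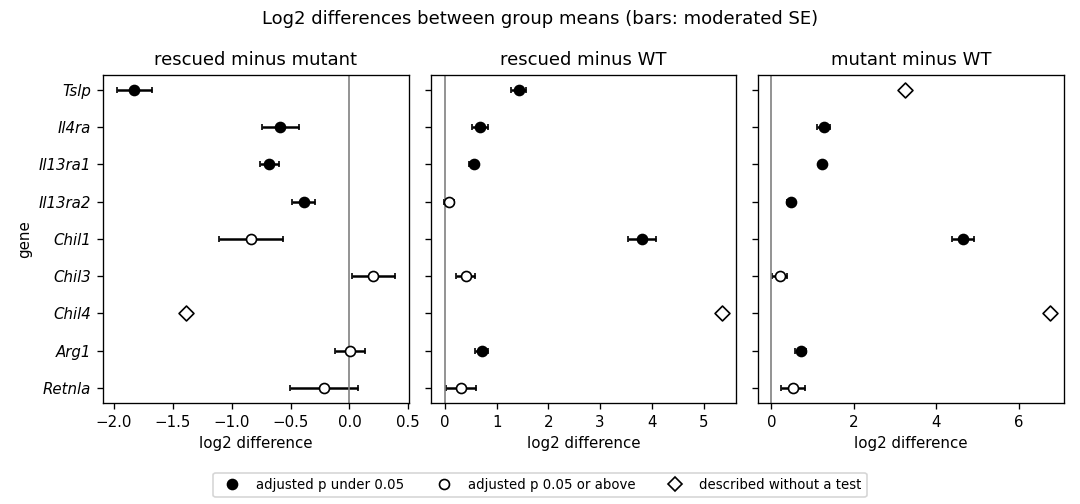
Log2 differences between group means (horizontal axes, a different range in each panel) for rescued minus mutant, rescued minus WT and mutant minus WT, with bars for the moderated SE; filled circles passed a limma adjusted p of 0.05, open circles did not, and diamonds are described without a test. Tslp lies at −1.83 in the left panel, Chil1 at 3.82 and 4.65 in the other panels, and Arg1 at 0.00, 0.71 and 0.71.

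Chil3 showed none of this. It lay at 5.78, 6.39 and 6.20 in rescued pools, 5.87, 5.70 and 6.19 in mutant pools and 5.95, 5.72 and 5.48 in WT pools. The groups overlapped and all lay below the median of all rows. The mutant minus WT difference was 0.20 (95% interval −0.21 to 0.61, limma adjusted p = 0.47), and the rescued minus WT difference was 0.40 (95% interval −0.01 to 0.81, limma adjusted p = 0.195). So the paralog whose promoter window matches that of Chil4 at 91.0% of aligned bases had no detectable difference.

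The chitinase-family neighbours on chromosome 3 lie in the order Chil5, Chia1, Chil3, Chil4 and Chil6. Chil5, another chitinase-like gene, had 4.84, 4.97 and 4.35 in rescued pools, 5.37, 5.58 and 5.26 in mutant pools and 4.32, 4.48 and 4.56 in WT pools. It was higher in the mutant than in WT by 0.95 (SE 0.15, limma adjusted p = 0.00101), and was below the median of all rows in every group. In rescued corneas it fell by 0.68 relative to the mutant (limma adjusted p = 0.0169, and 0.0535 without mutant replicate 2). Chia1, the acidic mammalian chitinase gene, differed by −0.13 between mutant and WT (limma adjusted p = 0.305) and Chil6 by 0.04 (limma adjusted p = 0.824). Rows of near-identical genes may share probe sequence, and how far Chil3, Chil4 and Chil5 signals are separate was not tested. Elsewhere in the genome, the chitotriosidase gene Chit1 differed by 0.50 (limma adjusted p = 0.0579) and Chid1 by −0.20 (limma adjusted p = 0.122), so Chil5 alone was called among the 6 other family members measured, Ctbs included, where 15.1% of all genes were called higher. Chit1 was called as well with only the 6 arrays compared, with dim genes left out, and without rescued replicate 1 or rescued replicate 2 (lowest limma adjusted p 0.00693).

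**Figure D3:**
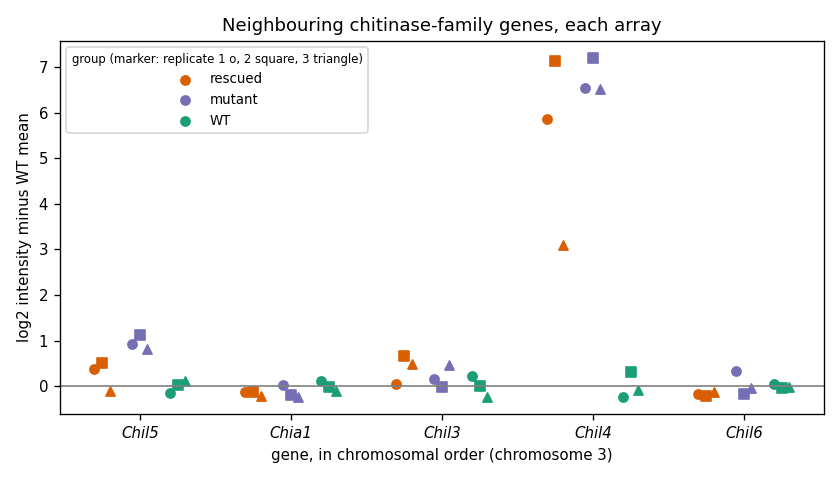
Log2 intensity of each array minus the WT mean of the same gene (vertical axis) for chitinase-family genes in their order on chromosome 3; colours mark groups and symbols replicates. Chil4 stands 3.10 to 7.13 above the WT mean in rescued pools and 6.52 to 7.21 in mutant pools, while Chil3 stays within 0.67 of it in every array.

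Arg1 encodes arginase 1, which turns arginine into ornithine and urea and is a standard marker of macrophages exposed to IL-4. Its log2 intensities were 11.15, 10.87 and 10.81 in rescued pools, 10.75, 11.21 and 10.85 in mutant pools and 10.20, 10.25 and 10.24 in WT pools. Arg1 was therefore well above the median of all rows in WT corneas already. In the mutant it was 1.63-fold above WT (log2 difference 0.71, SE 0.13, limma adjusted p = 0.00179), and in rescued corneas 1.64-fold above WT (log2 difference 0.71, limma adjusted p = 0.0055). No rescued or mutant pool overlapped WT, whereas rescued and mutant pools overlapped each other, with a difference of 0.00 (95% interval −0.28 to 0.28, limma adjusted p = 0.991).

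Retnla encodes RELM-alpha, the other standard marker of that macrophage state. Its log2 intensities were 4.15, 5.35 and 4.42 in rescued pools, 5.17, 4.89 and 4.51 in mutant pools and 4.45, 4.53 and 4.03 in WT pools, below the median of all rows and overlapping. The mutant minus WT difference was 0.52 (95% interval −0.13 to 1.17, limma adjusted p = 0.217). The difference between rescued and mutant was −0.22 (95% interval −0.87 to 0.43, limma adjusted p = 0.701), and that between rescued and WT was 0.30 (limma adjusted p = 0.571).

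Counted together, 5 of the 7 tested members were higher in mutant than in WT (Chil1, Il4ra, Il13ra1, Il13ra2 and Arg1) and none was lower. Of all 22180 genes 31.6% were called in that comparison, 15.1% higher and 16.5% lower. Between rescued and mutant, 4 of 8 were lower (Tslp, Il4ra, Il13ra1 and Il13ra2) and none was higher, where 13.3% of all genes were called, 6.88% lower and 6.46% higher. Between rescued and WT, 5 of 8 were higher (Tslp, Il4ra, Il13ra1, Chil1 and Arg1) and none was lower, where 13.7% of all genes were called, 6.28% higher and 7.43% lower. The 3 comparisons share arrays and the members were chosen with results known, so nothing further is read from these counts.

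Among the cytokines, Il33, the gene for another epithelial alarmin, had the same order of groups as Tslp. It had 7.37, 7.23 and 7.07 in rescued pools, 7.82, 8.29 and 8.02 in mutant pools and 6.63, 6.72 and 6.64 in WT pools, with no overlap. The mutant level was at least 2.60-fold above WT (limma adjusted p = 2.03e-05), and the rescued level was 1.76-fold below the mutant one (limma adjusted p = 0.00177). Il13 was higher by 0.27 in the mutant (limma adjusted p = 0.0249), with means of 7.01 in mutant and 6.74 in WT pools. That call was lost in 6 of 17 alternatives, with only the 6 arrays compared, with the Y-linked covariate, and without mutant replicate 2, mutant replicate 3, WT replicate 1 or WT replicate 3 (limma adjusted p up to 0.104). The T cell and mast cell cytokine genes Il4, Il5 and Il3 had differences of −0.10, −0.18 and −0.12 with limma adjusted p from 0.402 to 0.572. Each of them lay below the median of all rows in every group, as did 6 of the 9 cytokine genes. At such low signal, no call does not show that a gene was unchanged. In all, 2 of 9 cytokine genes were called higher and none lower, with a median difference of −0.0066, against a median of −0.016 and shares of 15.1% higher and 16.5% lower over all genes. The same shares are the background of every list count between mutant and WT below.

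Of 13 other receptor genes measured, 5 were higher in mutant than in WT and 2 were lower. The higher ones were Il7r, which encodes a chain shared by the TSLP and IL-7 receptors, Csf2rb2, Csf2rb, Il1rap and Il17ra, and the lower ones Csf2ra and Osmr. The Csf2ra call was lost in 8 of 17 alternatives, among them leaving out mutant replicate 2, mutant replicate 3 or any WT replicate (limma adjusted p up to 0.117). Il7r was at least 6.35-fold higher (log2 difference 2.67, limma adjusted p = 9.71e-05), and Csf2rb2, a receptor chain for IL-3 in mice, at least 3.88-fold (limma adjusted p = 3.11e-05). Crlf2, which encodes the chain particular to the TSLP receptor, lay at 8.39 ± 0.08 in rescued, 8.43 ± 0.04 in mutant and 8.44 ± 0.0047 in WT corneas (SD, n = 3 each; mutant minus WT −0.01, limma adjusted p = 0.925).

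Of 15 signalling genes measured, 6 were higher and 4 lower in mutant than in WT, with a median difference of 0.11. The 4 lower became 1 to 3 when each array was left out in turn, 1 without mutant replicate 3, WT replicate 1 or WT replicate 2 and 2 without mutant replicate 1 or WT replicate 3. Socs3, a feedback inhibitor of cytokine receptors, was 2.71-fold higher (limma adjusted p = 7.47e-05) and Stat6 1.33-fold higher (limma adjusted p = 0.00117). Stat6 fell by 0.27 in rescued relative to mutant corneas (limma adjusted p = 0.0289), a call lost with only the 6 arrays compared and without rescued replicate 1, rescued replicate 3, mutant replicate 2 or mutant replicate 3 (limma adjusted p up to 0.0974). Ptpn6, the gene for the phosphatase SHP-1, was 1.26-fold lower in the mutant (limma adjusted p = 0.00361).

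Target genes of IL-4 and IL-13 known from macrophages were called higher in 16 of 22 members and lower in 1, Cd209a, with a median difference of 0.56. When genes below the median of all rows were not tested, the 16 became 9. These were all the macrophage targets still tested except Cd209a. Cd209a had a limma adjusted p of 0.0446 and overlapping groups, its call did not hold in 11 of 17 alternatives, 7 of them with 1 array left out, and it was higher in the mutant by 0.98 when its 2 rows were averaged. Those known from epithelia were called higher in 10 of 19 and lower in 1, Fcgbp, with a median of 0.45. Alox15 stands in both target lists, and Socs2 in the signalling and macrophage target lists, so each is counted as higher more than once. Serpinb3a, a serpin protease inhibitor gene of squamous epithelia, had 11.52, 10.39 and 10.13 in rescued pools, 12.32, 11.78 and 12.22 in mutant pools and 6.35, 6.87 and 6.26 in WT pools. In mutant corneas it was at least 48.9-fold above WT (limma adjusted p = 2.25e-06), and in rescued corneas it was 2.69-fold below the mutant (limma adjusted p = 0.019, and up to 0.0707 without rescued replicate 2, rescued replicate 3, mutant replicate 1 or mutant replicate 3). Ccl17, the gene for a chemokine that attracts type 2 T cells, was at least 6.20-fold higher in the mutant (limma adjusted p = 3.42e-06) and 1.58-fold lower in rescued than mutant (limma adjusted p = 0.0287, and up to 0.102 without rescued replicate 1, rescued replicate 3, mutant replicate 2 or mutant replicate 3). Ptgs2, the gene for cyclooxygenase 2, was 9.40-fold higher in the mutant (limma adjusted p = 9.98e-07) and 2.90-fold lower in rescued than mutant (limma adjusted p = 0.000295).

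Between rescued and mutant corneas, 4 of the 22 macrophage targets were lower (Ccl17, Mgl2, Tgm2 and Cdh1) and none was higher, where 6.88% of all genes were lower and 6.46% higher. Tgm2 and Cdh1 were bright in WT corneas already, with means of 11.69 and 11.96, and both were called higher in the mutant. Bulk signal does not show which cells it comes from, so these counts are not a measure of macrophages. Of the 19 epithelial targets, 5 were lower in rescued than in mutant (Ptgs2, Serpinb3a, Slc26a4, Alox12 and Arg2) and 1, Fcgbp, was higher. Leaving out each array in turn gave 2 to 6 macrophage targets, 2 without rescued replicate 1, rescued replicate 3 or mutant replicate 3, and 3 to 5 epithelial targets, 3 without rescued replicate 3 or mutant replicate 3. Over the 82 measured genes of the type 2 and chitinase lists, 38 were higher and 8 lower in mutant than in WT. Between rescued and mutant, 2 were higher (Fcgbp and Osmr, whose call was lost in 12 of 17 alternatives) and 14 lower. Between rescued and WT, 19 were higher and none lower, where 6.28% of all genes were higher and 7.43% lower. The medians of these 82 genes were 0.25, −0.10 and 0.12, against −0.016, −0.0019 and −0.015 over all genes. Without rescued replicate 3 or mutant replicate 3, 8 and not 14 were lower in rescued than in mutant.

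**Figure D4:**
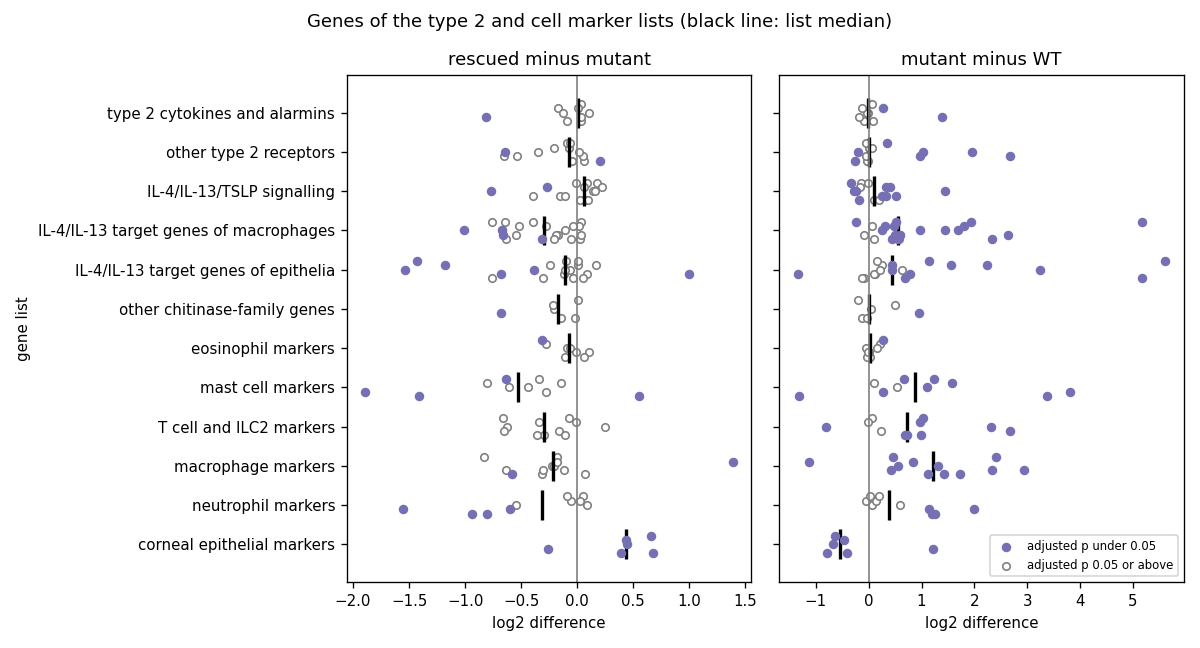
Log2 differences (horizontal axes) of single genes in each list for rescued minus mutant (left) and mutant minus WT (right); filled points passed a limma adjusted p of 0.05 and black lines are list medians. In the right panel the macrophage and epithelial targets reach 5.17 and 5.61 while the eosinophil markers cluster around 0.

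Markers of other cell types also differed between the groups, and Mrc1, Cd163, Il7r, Gata3, Il5ra and Retnlg stand in these lists as well as in those above. Of 12 macrophage markers, 11 were higher in mutant than in WT and 1, Itgam, was lower. Their mean log2 intensity was 8.0 to 8.37 in rescued pools, 8.13 to 8.68 in mutant pools and 7.16 to 7.25 in WT pools, with the lowest rescued mean in replicate 3. Ptprc, which encodes the leukocyte surface protein CD45, averaged 7.78 in rescued, 8.61 in mutant and 6.21 in WT corneas, below the median of all rows in WT. Mast cell markers were higher in 7 of 10 and lower in 1, Kit, with a mean of 6.01 to 6.33 in rescued, 6.31 to 7.07 in mutant and 5.61 to 5.69 in WT pools. The 7 became 4 without mutant replicate 3. When genes below the median of all rows were not tested, only Cpa3 and Kit were left of this list, and 1, Cpa3, was higher.

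T cell and group 2 innate lymphoid cell markers were higher in 7 of 11 and lower in 1, Rora. Their mean was 6.81 to 7.17 in rescued, 7.06 to 7.46 in mutant and 6.50 to 6.54 in WT pools. When genes below the median were not tested, only Gata3, Icos, Rora and Thy1 were left, and the 7 became 2, Icos and Thy1. The macrophage, mast cell and T cell means were each lowest among rescued pools in replicate 3, where Chil4 was lowest (8.07), and each lowest among mutant pools in replicate 2, where Chil4 was highest (12.18). Of 10 neutrophil markers 4 were higher (S100a9, S100a8, Cxcr2 and Csf3r), with a mean of 5.86 to 5.91 in rescued, 6.21 to 6.46 in mutant and 5.62 to 5.74 in WT pools. Of the 10, 7, among them Ly6g, Mpo and Elane, lay below the median of all rows in every group. When genes below the median were not tested, only Cxcr2 and Csf3r were left, and these 2 were higher. Eosinophil markers lay at 5.57 to 5.62 in rescued, 5.64 to 5.71 in mutant and 5.57 to 5.66 in WT pools. Of these 8 markers 7, including Epx, Prg2 and Siglecf, lay below the median of all rows in every group, and Ccr3 alone was called, higher by 0.26 in the mutant (limma adjusted p = 0.0426). That call was lost in 11 of the 16 alternatives that tested it, including without any one of the rescued replicates, mutant replicate 1, mutant replicate 3, WT replicate 2 or WT replicate 3 (limma adjusted p up to 0.146). Of 6 corneal epithelial markers measured, Krt14 was higher and 5 were lower in the mutant, with a mean of 13.05 to 13.09 in rescued, 12.65 to 12.70 in mutant and 12.96 to 12.99 in WT pools. The part of cell numbers in the values of the 9 genes was not tested.

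Likeness to Chil4 and to Tslp was measured as Pearson's r over the 9 arrays among 19261 other genes with named symbols. The arrays fall into 3 groups, so r mostly carries the group differences, and it is given as a description. The 5 genes nearest to Chil4 were Alox15, which encodes a lipoxygenase induced by IL-4 and IL-13 in other tissues (r = 0.995), the membrane protein gene Ly6e (0.993), Gdpd2 (0.989), the interferon-induced gene Ifitm3 (0.986) and Syngr2 (0.985). Without rescued replicate 3 these values were 0.988 to 0.995. Alox15 had 12.10, 12.55 and 9.76 in rescued pools, 12.31, 12.40 and 11.99 in mutant pools and 7.14, 7.02 and 7.04 in WT pools. It was also lowest among rescued pools in replicate 3. Because Alox15 was chosen for its likeness to Chil4 over these same arrays, that shared low value is no separate finding.

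The 5 genes nearest to Tslp were the tropomyosin gene Tpm2 (r = 0.998), the immediate early gene Nr4a1 (0.997), the caldesmon gene Cald1 (0.997), the small GTPase gene Rras (0.997) and the LIM-domain gene Fhl2 (0.997). Of their mutant minus WT differences, 39.9% to 46.1% was left in rescued corneas, beside 43.8% for Tslp. For the genes nearest to Chil4 the share left was 71.3% to 88.3%, beside 79.4% for Chil4. These shares are on the log2 scale. The genes were chosen by r over the same 9 arrays, so shares close to that of Tslp or Chil4 follow from the choice. Nothing further is read from them.

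**Figure D5:**
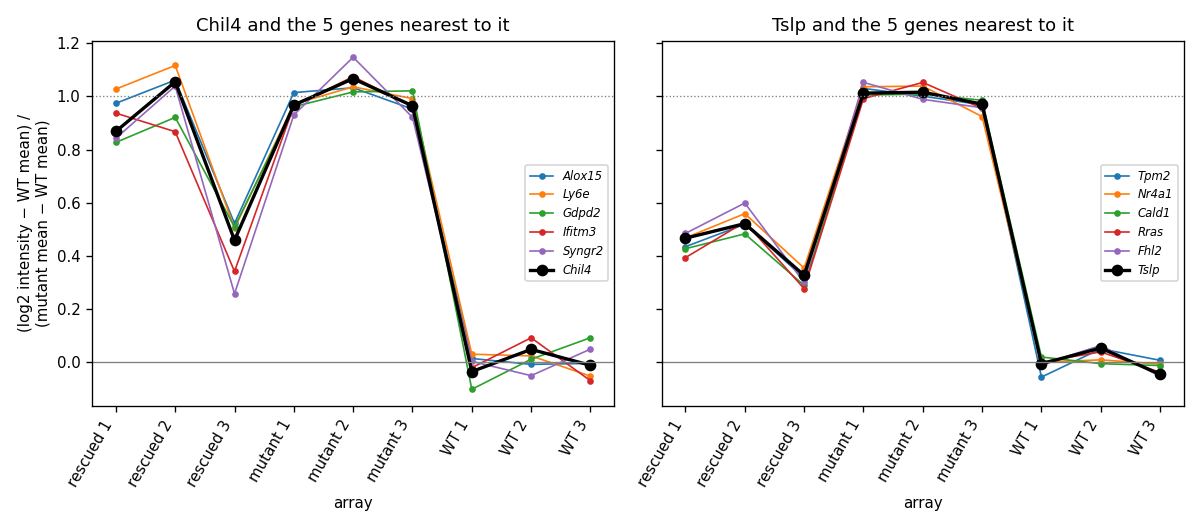
Log2 intensity of each array scaled so that the WT mean is 0 and the mutant mean is 1 (vertical axis), for Chil4 (left, black) and Tslp (right, black), each with the 5 genes of highest Pearson's r, over the 9 arrays (horizontal axis; lines only join points of a gene). The genes on the left stay near 1 in rescued replicates 1 and 2 and drop in replicate 3, and those on the right lie at intermediate values in all 3 rescued pools.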

How the data were processed

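Pooled corneal RNA was amplified, labelled with biotin and measured on 1-colour Affymetrix arrays, per the labels' protocols. The values the authors deposited are log2 intensities, already normalised between arrays (array medians 6.75 to 6.78). How they were normalised is not stated in the sources used here, and the log base was taken as 2 because values span 2.14 to 14.3. Of 41345 rows, 23521 had exactly 1 gene symbol in the platform annotation; the brightest row stood for each of 22180 genes, with no filter on intensity.

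All 9 arrays were fitted with limma 3.58.1 in R 4.3.3 (lmFit, contrasts, eBayes), and a Benjamini-Hochberg adjusted p under 0.05 over all genes was a call. SEs are moderated, intervals are 95% and unadjusted, SDs are over n = 3 pools, and this number limits the precision. On simulated data for mutant minus WT, the fit recovered 29 of 50 added log2 changes of 0.5 and 47 of 50 of 1. It recovered 50 of 50 at sizes 2 and 3, with 8 false calls among 22180 genes. Changes of about 0.5 or less can therefore be missed. Members and gene lists were chosen with earlier results of these data known. Named genes are the 9 members, called genes of short lists, up to 4 per list with the largest absolute mutant minus WT difference, and the 5 nearest to Chil4 and to Tslp; other genes given as examples (such as Il4, Crlf2, Il17ra, Cdh1, Tgm2, Mgl2, Cd209a, Alox12, Arg2, Rora, Krt12, Chil6 and Ctbs) were added after their values were seen. Promoters were aligned with Biopython 1.88. Alternatives were quantile normalisation, array median centring, leaving out dim genes, the mean of a gene's rows, trend and robust variance, the 6 arrays of a comparison, the replicate number as a block, each array left out, and a Y-linked covariate added after seeing the data.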

Additional observations from a re-analysis of the deposited data

How the results depend on the processing

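With 3 pools a group and several members near background, the limits lie mainly in the smaller differences. In all, 654 main values were recomputed under quantile normalisation, median centring, the mean of a gene's rows and the other alternatives. These are the members, all genes and the type 2 and chitinase lists together, and 605 of them were kept. For a tested difference, kept means the same side of the threshold, and for a count, within 1.5 times. Chil4, and Tslp between mutant and WT, were kept if they moved by less than their SD within the groups compared. For Chil4 in rescued corneas that rule is loose, because the SD of 2.06 includes the low replicate 3. With each array left out, its rescued minus mutant difference ran from −2.27 to −0.26 and was still counted as kept. No difference that passed before or after changed sign, nor did an untested one. A difference that passed neither time could change sign and still be kept, as for Arg1 between rescued and mutant (−0.10 to 0.14 with each array left out). Counts of single lists were recomputed apart from these main values, and 147 of 1224 moved by over 1.5 times. Among them were macrophage targets (16 to 9), mast cell (7 to 1) and T cell markers (7 to 2) higher in the mutant once genes below the median were left out. In these lists the counts fell because dim genes were no longer tested, and no gene still tested lost its call of higher. The 8 list genes lower in mutant than in WT became 4 with only the 6 arrays compared, 4 with the replicate block and 5 with the Y-linked covariate. That covariate was chosen after seeing the data because Y-linked signal differed between pools. Mean Y-linked log2 signal was 5.34, 9.77 and 5.15 in WT replicates 1, 2 and 3. It was 7.77, 9.77 and 8.41 in mutant and 7.16, 9.11 and 8.89 in rescued replicates. WT replicates 1 and 3 were the lowest pools, so sex make-up and group are partly mixed in the comparisons with WT. The 2 list genes higher in rescued than in mutant became 1 with median centring, the 6 arrays, the replicate block or the covariate. The 0 list genes lower in rescued than in WT became 1 with centring or trend and robust variance, and 2 without genes below the median. Without those dim genes, Chil3, Retnla and Il13ra2 had no value and the Chil1 difference of −0.83 between rescued and mutant passed (limma adjusted p = 0.0428). Between rescued and mutant, the Il4ra difference of −0.59 no longer passed with the 6 arrays (limma adjusted p = 0.0618) or the replicate block (0.0729), nor the Il13ra2 difference of −0.39 with the 6 arrays (0.0565). Deviations from group means correlated at −0.016 to 0.063 for arrays with shared replicate numbers and −0.095 to 0.08 for different numbers. With 3 arrays a group, such weak correlations cannot decide whether replicate numbers pair arrays.

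Leaving out each array in turn, rescued minus mutant was −1.17 to −0.55 for Chil1, −0.74 to −0.44 for Il4ra and −0.48 to −0.33 for Il13ra2, and rescued minus WT was 0.53 to 0.82 for Il4ra. List genes numbered 3 to 6 lower in mutant than in WT, 1 to 2 higher and 8 to 15 lower in rescued than in mutant, and 0 to 1 lower in rescued than in WT. Of all genes, 837 to 1458 were lower in rescued than in mutant, fewest without rescued replicate 3 (893 without mutant replicate 1, 907 without mutant replicate 3). Between rescued and WT, 819 to 1429 were higher, fewest without rescued replicate 2, and 993 to 1590 lower (993 without rescued replicate 2, 1033 without WT replicate 1, 1072 without rescued replicate 1). The cause of these shifts was not tested.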
